A study of Mus musculus with 30 samples.

Results

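The interferon regulatory factor (IRF) genes are a family of transcription factors, and 8 of them were followed here: Irf1, Irf2, Irf3, Irf4, Irf5, Irf7, Irf8 and Irf9. They were taken by symbol, with earlier results of these data known, and all 8 were present in both deposited count tables. They are 8 of 13353 genes measured in bone marrow (BM) and 8 of 17059 genes measured in visceral adipose tissue macrophages (ATMs).

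IRF proteins share a DNA-binding domain that recognises interferon-stimulated response elements in the promoters of antiviral and inflammatory genes. IRF3 and IRF7 are activated by kinases downstream of nucleic acid sensors and switch on type I interferon genes, IRF5 acts below Toll-like receptors on inflammatory cytokine genes, and IRF9 is the DNA-binding part of the complex that carries the type I interferon signal to the nucleus. IRF1 is induced by interferons and activates antigen presentation genes, IRF2 competes with it for the same sites, and IRF4 and IRF8 direct the development of plasma cells, B cells, monocytes, dendritic cells and macrophages.

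The study asked how obesity, a GLP-1 receptor (GLP-1R) agonist and an antibody to interleukin-17A bear on blood cells that carry an activating Shp2 mutation. BM cells of CD45.2+ Shp2E76K/+;LysM-Cre+ donors, in which Cre is driven by the lysozyme M promoter of myeloid cells, were mixed 1:1 with CD45.1+ BM of Boy/J mice. The mixture was given to lethally irradiated recipients (700 cGy and 400 cGy). Recipients were lean wild-type mice (WT) or leptin-deficient, obese Ob/Ob mice. From 8 weeks after transplantation the Ob/Ob recipients received vehicle (Vehicle), the GLP-1R agonist beinaglutide at 3 mg/kg, an anti-IL-17A antibody at 200 μg per mouse 3 times a week, or both (Combo), for 30 days. WT recipients carry no treatment label, so Vehicle vs WT compares obese, vehicle-injected mice with lean mice for which no injection is given. Mice were 12 to 14 weeks of age and of both sexes, on a C57BL/6 background. The labels give 1 donor mixture for the whole series and no donor for single libraries. A figure legend of the study, however, names WT donor cells for the ATM comparison. A difference in donor therefore cannot be told apart from the difference in recipient in ATMs. In BM, where single libraries have no donor label either, a difference between the donor animals of the groups was not tested. By the labels, the libraries hold mutant donor cells, competitor cells and any host cells that survived, and ATMs were sorted on F4/80 alone.

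Each tissue had 5 groups of 3 libraries, 30 libraries in all, with 3 mice per group in the labels. BM libraries held 31086184 to 39925495 counts on genes and ATM libraries 24876074 to 45300263. Replicates of a group varied far less in BM than in ATMs (biological coefficients of variation 3.51% and 32.5%), and smaller changes pass the test in BM. BM WT replicate 1 stood apart from the other two WT libraries of BM, with 34.8 and 26.6 times the variance of counting noise against 2.02 to 4.21 for the other pairs of BM replicates. Among the ATM libraries, Adgre1, which encodes the F4/80 antigen used for the sort, was lowest in Vehicle, at 30.2 to 52.4 CPM (counts scaled to the library total) against 192 to 230 in WT and 375 to 894 in the treated groups. Summed over 7 measured neutrophil markers, Vehicle held 20755 to 21971 CPM and Combo 11984 to 12310 CPM, against 146 to 365 CPM in the other 3 groups. Ly6g, the eighth gene of that list, has no row in either table. The 5 measured epididymis markers summed to 2998 to 3145 CPM in ATM WT, to 41.7 to 180 CPM under either single agent and to at most 0.586 CPM in Vehicle and Combo, and pancreatic acinar markers to 665 to 674 CPM in ATM Combo against at most 27.0 CPM elsewhere in ATMs. The X-linked Xist RNA, made in female cells, was at 182 to 193 CPM in BM Vehicle and 101 to 105 CPM in BM Combo against at most 3.26 CPM in the other BM groups, and the same 2 groups of ATMs held 30.1 to 46.2 CPM against at most 1.22 CPM. Xist therefore moved with Vehicle and Combo. Of 5 sex-linked genes in BM, 1 was called higher and 4 lower in Vehicle vs WT, against 19.5% of all genes called. Where Vehicle or Combo is compared with WT or a single agent, a difference in sex cannot be told apart from that of the groups. The part of sex in the results below was not tested. In whole tissue RNA, fewer cells of a type and less RNA per cell cannot be told apart.

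In the mouse genome (GRCm38) Irf1 is at chr11:53770014-53778374, Irf2 at chr8:46739732-46847458, Irf3 at chr7:44997648-45002848, Irf4 at chr13:30749226-30766976, Irf5 at chr6:29526625-29541871, Irf8 at chr8:120736358-120756694 and Irf9 at chr14:55603571-55610030, all on the forward strand. Irf7 is at chr7:141262706-141266481 on the reverse strand. Reads were counted without regard to strand, and a read over several genes was counted for each, so exon bases shared with a neighbour carry reads of both. Irf5 shares the largest part of the family, 14.1% of its exon bases with Tnpo3 on the other strand. Irf1, Irf3 and Irf7 share 3.4%, 2.56% and 1.19% with genes on the other strand (Gm17334, Bcl2l12 and Phrf1), Irf9 shares 2.28% with Rnf31 on its own strand, and Irf2, Irf4 and Irf8 share none.

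The promoter sequences shown are those of Irf1 and Irf7, which moved together in the results, and of Irf8 and Irf2, the other members with a motif match. They are the RefSeq windows of 250 bases before each gene's start (GRCm38.p6), printed up to the gene's start as GENCODE places it, and written 5′ to 3′ on the gene's strand. Capitals mark matches, on either strand, to an ISRE-type element (GAAANNGAAA, the sites that IRF proteins and the IRF9 complex bind) or to a GAS-type element (TTCNNNGAA, the gamma-activated sites of interferon-induced genes). An ISRE-type match was present in 978 of 32851 such windows of mouse genes (2.98%) and a GAS-type match in 2306 (7.02%).
Irf1, chr11:53769764-53770013, forward strand: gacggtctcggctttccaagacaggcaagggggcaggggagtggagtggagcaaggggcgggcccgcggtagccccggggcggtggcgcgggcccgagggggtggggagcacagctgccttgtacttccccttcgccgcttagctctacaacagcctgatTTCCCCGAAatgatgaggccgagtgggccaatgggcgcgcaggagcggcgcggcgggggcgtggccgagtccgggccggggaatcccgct
Irf7, chr7:141266482-141266674, reverse strand: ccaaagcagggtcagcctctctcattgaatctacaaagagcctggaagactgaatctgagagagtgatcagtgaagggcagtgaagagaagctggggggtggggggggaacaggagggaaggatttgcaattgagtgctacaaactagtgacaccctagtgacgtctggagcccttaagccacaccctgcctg
Irf8, chr8:120736108-120736357, forward strand: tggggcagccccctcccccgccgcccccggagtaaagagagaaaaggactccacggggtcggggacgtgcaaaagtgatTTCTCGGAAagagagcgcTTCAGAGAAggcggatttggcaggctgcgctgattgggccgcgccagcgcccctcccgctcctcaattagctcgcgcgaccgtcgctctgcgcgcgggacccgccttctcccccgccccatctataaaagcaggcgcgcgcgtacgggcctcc
Irf2, chr8:46739495-46739731, forward strand: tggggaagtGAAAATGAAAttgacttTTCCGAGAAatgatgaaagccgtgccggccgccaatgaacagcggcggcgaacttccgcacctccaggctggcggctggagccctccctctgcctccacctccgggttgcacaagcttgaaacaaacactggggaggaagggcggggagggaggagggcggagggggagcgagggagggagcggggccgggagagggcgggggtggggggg

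The Irf1 window held 1 GAS-type match, 90 to 82 bases before the start, and the Irf8 window held a pair, at 171 to 163 and 153 to 145 bases. The Irf2 window held an ISRE-type match 241 to 232 bases before the start and a GAS-type match at 224 to 216 bases. These distances are counted from the RefSeq start, which for Irf2 lies beyond the last printed base. Irf3, Irf4, Irf5, Irf7 and Irf9 held neither motif in their whole RefSeq windows, which for Irf9 lie inside the gene as GENCODE places it and so hold none of the bases before that start. This says only that these letters are absent from these bases. The sequence and the RNA levels are set side by side below without any test of a link.

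In BM of obese recipients given vehicle, Irf7 rose 22.5-fold over WT, the largest difference of the family, while Irf4 fell 5.45-fold. A gene was called changed at a Benjamini-Hochberg false discovery rate (FDR) below 0.05 over all genes with an absolute log2 fold change above 1, in edgeR's quasi-likelihood test. By that rule 2 of the 8 members were called, against 19.5% of all genes measured in BM. All 8 passed the FDR alone, as did 76.6% of all genes, so the size of a change tells the members apart better than its p-value. Values are normalized counts, scaled to the mean library size of the tissue.

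Irf7, the factor that amplifies type I interferon production, was at 2075, 2327 and 2206 normalized counts in the 3 WT libraries of BM and at 48269, 49492 and 50889 in the 3 Vehicle libraries. The groups stood far apart and the libraries within each lay close together. The log2 fold change was 4.49 (SE 0.0416, adjusted p = 3.20e-29, edgeR). Irf4, needed for plasma cells and late B cell stages, went the other way, from 2215, 2218 and 2258 in WT to 390.1, 404 and 434 in Vehicle. Its log2 fold change was -2.45 (SE 0.0602, adjusted p = 1.01e-31, edgeR). Irf4 moved with markers of the cells that use it. Summed over the 4 plasma cell markers, WT libraries held 954 to 995 CPM and Vehicle libraries 219 to 222, with all 4 called lower. The 8 B cell markers fell from 1264 to 1279.6 CPM to 379 to 399, with 7 called lower, where 19.5% of all genes were called. Whether this accounts for the lower Irf4 was not tested.

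Irf1 stood next to the 2-fold limit in BM, and Irf9 below it. Irf1, the interferon-induced activator, was at 3812, 3804 and 4003 normalized counts in WT and 7284, 7519 and 7855 in Vehicle, a log2 fold change of 0.96 whose 95% interval ran from 0.90 to 1.03. The estimate was just under the limit, so Irf1 was not called, although its groups did not overlap. Irf9, the DNA-binding subunit of the type I interferon complex, was at 3210.1, 3317 and 3290.3 in WT and 5451, 5556 and 5562 in Vehicle, 1.69-fold apart (log2 0.76). Irf5 differed by 0.56 on the log2 scale (2875, 2967 and 2869 in WT, 4259, 4396 and 4218 in Vehicle). Irf8, Irf3 and Irf2 were lower in Vehicle by less than 2-fold, at -0.46, -0.48 and -0.25 on the log2 scale. Irf8, the factor of the monocyte and dendritic lineages, was at 8076, 8577 and 8222 in WT and 5976, 5998 and 6136 in Vehicle. The marker sums of these lineages moved both ways. Monocyte markers summed to 1675 to 1696 CPM in WT and 3388 to 3550 CPM in Vehicle. Of these 5 genes, however, 2 were called higher and 1 lower, with a median log2 fold change of -0.10. Conventional dendritic cell markers summed to 423 to 462 and 285 to 302 CPM, with 2 of 8 called lower, against 19.5% of all genes called. Irf3, the constitutive partner of Irf7, was at 1873, 1868 and 1951 in WT and 1399, 1309 and 1371 in Vehicle. Irf2 had the smallest difference of the family, 3433, 3442 and 3345 against 2787, 2902 and 2901.

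**Figure D1:**
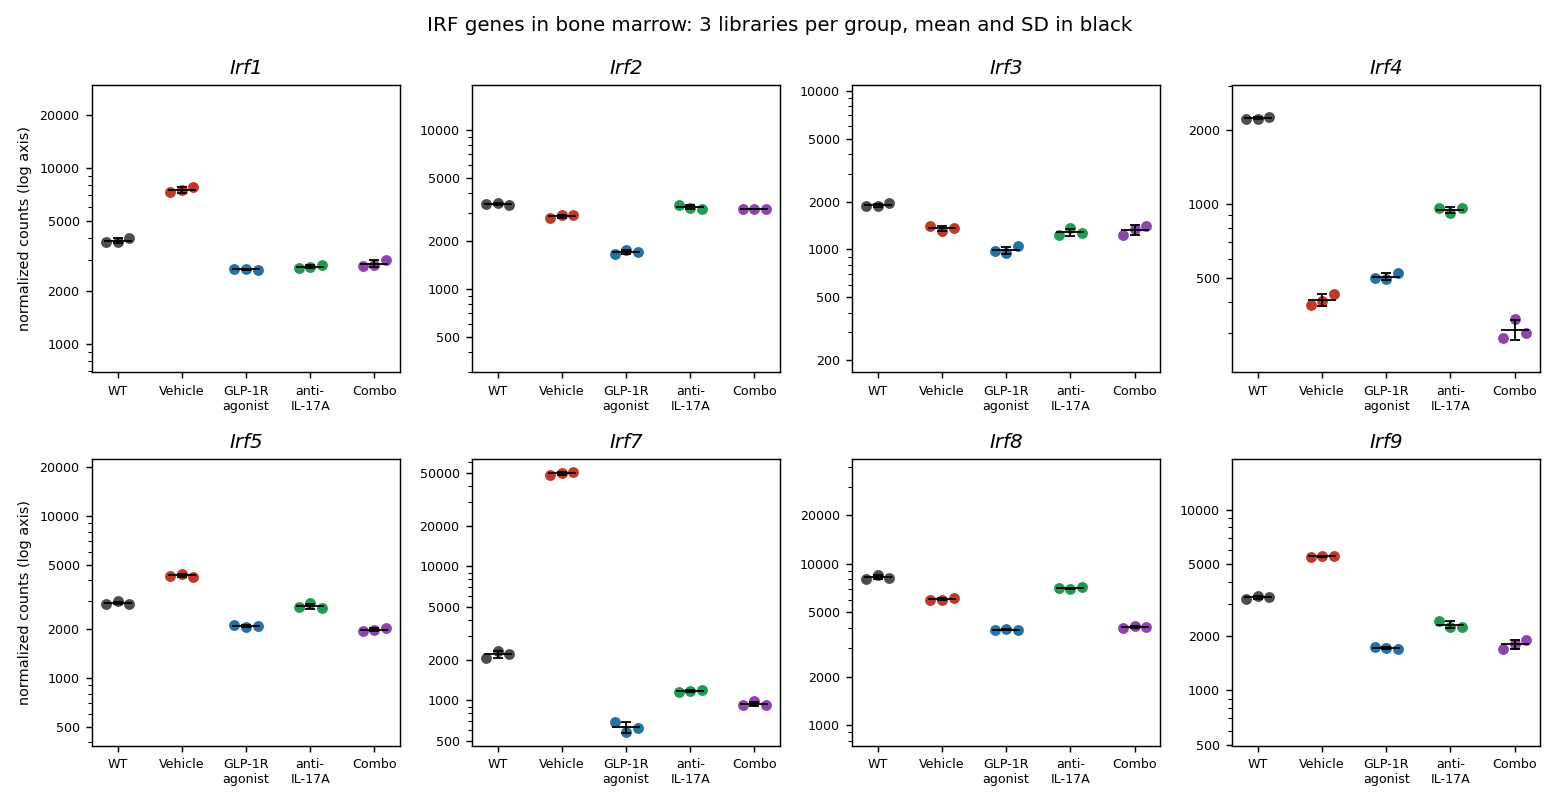
Normalized counts of the 8 IRF genes in bone marrow on log axes, 1 panel per gene; each point is 1 library, the black bar is the mean of 3 libraries and the whiskers are 1 SD. Irf7 in Vehicle (48269 to 50889) stands above every other group (578 to 2327), and Irf4 is highest in WT (2215 to 2258).

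In ATMs, 6 of the 8 members were called in Vehicle vs WT, 5 higher and 1 lower, against 35.4% of all genes in ATMs. On the FDR alone 7 passed, against 56.9% of all genes. Irf7 rose 45.8-fold, Irf9 3.16-fold, Irf1 2.58-fold, Irf2 2.46-fold and Irf5 2.33-fold, and Irf4 fell 2.95-fold.

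Irf7 was at 3665, 3778 and 3886 normalized counts in WT ATMs and at 174448, 169563 and 174818 in Vehicle, a log2 fold change of 5.52 (SE 0.0747, adjusted p = 1.98e-17, edgeR). The absolute change of Irf7 was at percentile 92.2 of all genes measured in ATMs and at percentile 99.2 in BM. Irf9 went from 2704, 2709 and 2836 to 8968, 8751 and 8332 (log2 1.66, adjusted p = 8.69e-12, edgeR). Irf1 went from 12780.3, 12700.1 and 13358 to 33403, 33762 and 33174 (log2 1.37, adjusted p = 1.41e-11, edgeR).

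Irf2, which binds the same sites as IRF1 and dampens them, rose as well, from 1123, 1193 and 1205 to 2865, 2475 and 3317 (log2 1.30, SE 0.1216, adjusted p = 2.07e-07, edgeR). In BM its values had been lower in Vehicle. Irf5, the driver of inflammatory cytokine genes in macrophages, went from 2676, 3049.6 and 2355 to 6279.8, 6322 and 6253 (log2 1.22, adjusted p = 2.07e-09, edgeR). Irf4, which in macrophages goes with alternative activation, fell from 1262, 1265 and 1398 to 554, 486 and 287 (log2 -1.56, SE 0.3045, adjusted p = 4.25e-04, edgeR). The Vehicle libraries of Irf4 differed almost 2-fold among themselves, as the SE shows, yet none reached the lowest WT library. Irf8 was at 3428, 3268 and 3809 in WT and 6384, 7048 and 6003 in Vehicle, 1.85-fold apart and under the limit (log2 0.89, adjusted p = 8.84e-07, edgeR). Irf3 overlapped between the groups (899, 1024 and 1088 against 874, 793 and 939.9) and did not pass the test (log2 -0.21, adjusted p = 0.179, edgeR).

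The ATM libraries of Vehicle also held less Adgre1 RNA than WT, as given above, and more of the neutrophil markers, of which 7 of 7 were called higher. Macrophage markers summed to 3334 to 3582 CPM in Vehicle and 4626 to 4865 in WT, with 3 called higher and 4 lower of 10. Of all genes in ATMs 35.4% were called. The part of cell composition in the ATM differences of the IRF genes was not tested.

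**Figure D2:**
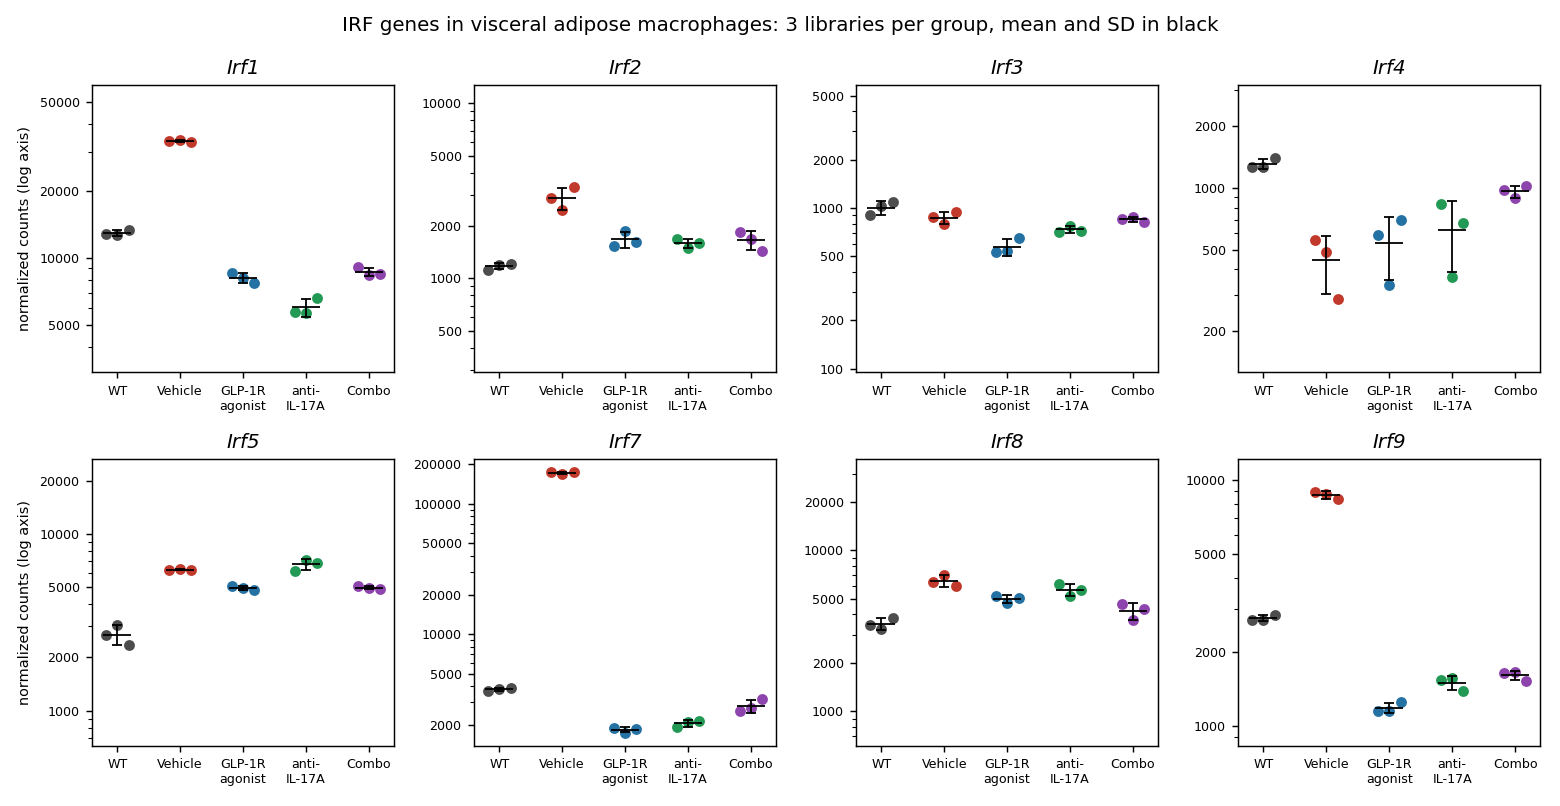
Normalized counts of the 8 IRF genes in visceral adipose tissue macrophages on log axes, 1 panel per gene; each point is 1 library, the black bar is the mean of 3 libraries and the whiskers are 1 SD. Vehicle libraries are highest for Irf7 (169563 to 174818), Irf1, Irf2 and Irf9, and the Irf4 libraries of Vehicle and of either single agent scatter widely.

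The genes around the family were read from lists of the interferon pathway. Of the interferons themselves, 1 of 11 listed genes had a row in the BM table. That gene, Ifng, the type II interferon, was at 129.5 normalized counts in Vehicle and 27.9 in WT (log2 2.22, adjusted p = 4.87e-10, edgeR). In ATMs 4 of 11 were measured and Ifnb1, the type I interferon switched on by IRF3 and IRF7, was the 1 called, at 1353 against 58.2 (log2 4.54, adjusted p = 1.90e-08, edgeR). The share of all genes called in ATMs was 35.4%. Ifng did not pass in ATMs, at 486 in Vehicle and 577 in WT (log2 -0.25, adjusted p = 0.237, edgeR). Ifnb1 has no row in the BM table, so it could not be compared between the tissues.

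Of 25 sensors, adaptors and kinases that activate IRF3, IRF5 and IRF7, 6 were called higher and 1 lower in BM, where 19.5% of all genes were called, and 10 higher and 3 lower in ATMs, where 35.4% were. In BM the higher ones included Zbp1, Ddx58, Ifih1 and Ikbke, at log2 fold changes of 3.99, 2.13, 2.82 and 1.81. Zbp1 is also on the list of type I interferon-induced genes given below, so these lists are not separate. Zbp1 senses Z-form nucleic acid, Ddx58 and Ifih1 encode the RNA sensors RIG-I and MDA5, and Ikbke encodes a kinase of IRF3 and IRF7. In ATMs they included Irak2, Ifih1, Tmem173 (STING) and Zbp1, at 2.90, 3.25, 1.51 and 4.08. Ticam2, the adaptor of TLR4 to IRF3, was lower in both tissues, at -1.35 in BM and -1.29 in ATMs.

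Among 11 receptor, JAK and STAT genes, Stat2, which pairs with IRF9, was the 1 called in BM, at 16168 against 1744 normalized counts (log2 3.21), where 19.5% of all genes were called. In ATMs 3 were called, all higher, among them Ifngr2 (log2 1.33) and Stat2 (3.26), where 35.4% of all genes were called, so neither count exceeded the share over all genes. The receptor subunits Ifnar1 and Ifnar2 were not called in either tissue.

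All 20 listed type I interferon-induced genes were called higher in Vehicle in both tissues, where 19.5% (BM) and 35.4% (ATMs) of all genes were called. Their median log2 fold changes were 3.81 in BM and 4.48 in ATMs, against medians of -0.02 and -0.21 over all genes. In ATMs Rsad2 went from 7048 to 203261 normalized counts and Ifit1 from 4839 to 105205, and in BM Isg15 went from 1004 to 32771. Of 22 interferon-gamma and IRF1 target genes, 20 were called higher and 1 lower in each tissue, with medians of 2.61 and 2.66. The lower one was Ciita, the master regulator of MHC class II genes, at -1.41 in BM and -3.27 in ATMs. The higher ones included B2m, at 1.67 in BM and 1.98 in ATMs, and Tapbp, at 2.20 and 1.51, both of MHC class I. A median over a list is a description of its members, and no set was tested.

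For the lists that follow, 19.5% of all genes were called in BM and 35.4% in ATMs. The IRF5 cytokine target list had 5 of 6 measured genes higher in BM and 6 of 8 in ATMs, among them Tnf, at 1.08 in BM and 3.57 in ATMs, and Ccl5, at 2.65 and 4.13. Of 11 partners of IRF4 and IRF8, Batf2 rose in both tissues (3.81 and 4.33). Spi1, which encodes the partner PU.1, rose in ATMs from 1824 to 10398 normalized counts (2.51). In BM Spib and Ikzf3, both prominent in B cells, fell by 1.87 and 1.61 on the log2 scale. The list of IRF4-dependent genes split. In BM the plasma cell genes Jchain and Mzb1 fell by 2.13 and 2.23 on the log2 scale, as did Mrc1, of alternatively activated macrophages, by 2.91. Chil3, on the same list, rose by 1.49. In ATMs Retnla fell by 5.63 and Mrc1 fell by 4.28 while Chil3 rose by 6.33. Neutrophil markers were also higher in Vehicle ATMs, as given above, and which cells carried Chil3 was not tested in either tissue. Of 12 IRF8-dependent genes, 2 were called higher (Ctss and Id2, at 1.36 and 2.09) and 2 lower (Klf4 and Xcr1, at -2.85 and -2.43) in BM. In ATMs 4 were lower, among them Csf1r, the receptor for macrophage colony-stimulating factor, at -3.52, against 35.4% of all genes called. Of 10 co-regulators and regulators of IRF stability, Usp18, Trim21, Socs1 and Irf2bp2 rose in BM and Usp18 and Trim21 in ATMs. Usp18, which restrains the type I receptor, had the largest change in each (4.04 and 4.73). Usp18 is also on the list of type I interferon-induced genes, and Socs1 on that of interferon-gamma and IRF1 targets.

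Each treatment was then compared with Vehicle, to ask whether the obese pattern of the family was altered. The 3 comparisons share the Vehicle libraries, so their values are given side by side and are not independent of each other. In BM the GLP-1R agonist lowered 4 members, Irf7, Irf9, Irf1 and Irf5, against 16.7% of all genes called. The anti-IL-17A antibody lowered Irf7, Irf9 and Irf1 and raised Irf4, against 16.1%. Combo lowered Irf7, Irf9, Irf1 and Irf5, against 17.7%. On the FDR alone 8, 7 and 7 members passed, against 72.8%, 73.0% and 73.8% of all genes.

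Irf7, highest in BM Vehicle, was at 690.0, 578 and 621 normalized counts under the GLP-1R agonist, 1151, 1171 and 1198 under the antibody and 930.1, 986 and 917 in Combo. Every treated library lay below every WT library. The fold changes against Vehicle were 78.7, 42.2 and 52.5, or -6.30 (SE 0.0476), -5.40 (SE 0.0443) and -5.71 (SE 0.0458) on the log2 scale (adjusted p = 5.17e-31, 3.19e-30 and 1.69e-30, edgeR). Irf1 was at 2681, 2656 and 2626, then 2693, 2753 and 2811, then 2767, 2819 and 3023 in the same order of groups. These are 2.84-, 2.74- and 2.63-fold lower than Vehicle and nearly alike.

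Irf9 was at 1747, 1712 and 1705 under the agonist, 2438, 2244 and 2259 under the antibody and 1704, 1797 and 1902 in Combo, or -1.68, -1.26 and -1.62 on the log2 scale. Irf5 fell by 1.04 (95% interval -1.11 to -0.97) under the agonist, to 2112, 2055 and 2082, and by 1.11 in Combo, to 1955, 1984 and 2022. Under the antibody Irf5 was at 2728, 2879 and 2709, 1.55-fold below Vehicle and under the limit. For Irf5, Irf7 and Irf9 alike, every library of both groups given the agonist lay below every library given the antibody alone.

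Irf4 was the exception in BM. The antibody raised it 2.32-fold over Vehicle, to 961, 921 and 966 normalized counts (log2 1.21, SE 0.0636, adjusted p = 3.34e-20, edgeR). All 3 values stayed below each WT library. The agonist left it at 504, 496 and 526 (log2 0.31) and Combo at 288, 342 and 299 (log2 -0.40), both inside the 2-fold limit. Plasma cell markers summed to 438 to 449 CPM under the antibody, 543 to 560.3 under the agonist and 242 to 259 in Combo, and B cell markers to 398 to 406, 126 to 128 and 123 to 127 CPM. Irf4 was highest under the antibody, as the B cell sums were among the treated groups, but the plasma cell sums were highest under the agonist, and the B cell sums under the antibody were close to those of Vehicle. Irf8 was at 3901, 3936 and 3901 under the agonist, 7033, 6992 and 7132 under the antibody and 3983, 4100.2 and 4035 in Combo, none of them called against Vehicle. Irf2 ran from 1654 to 1749 under the agonist and from 3156 to 3352 in the other treated groups. Irf3 ran from 952 to 1045 under the agonist and overlapped Vehicle in the other treated groups.

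In ATMs each treatment lowered the same 3 members by name, Irf1, Irf7 and Irf9, and Combo raised Irf4. The shares of all genes called were 31.8% for the agonist, 35.5% for the antibody and 26.4% for Combo, and on the FDR alone 53.8%, 58.1% and 48.7%, beside 7, 4 and 7 members. Irf7 fell to 1916, 1759.8 and 1891 normalized counts under the agonist, 1941, 2129.9 and 2183 under the antibody and 2574, 2724 and 3168 in Combo. These are 93.1-, 83.0- and 61.3-fold decreases (log2 -6.54, -6.37 and -5.94, with adjusted p = 7.08e-18, 5.52e-18 and 2.80e-17, edgeR). Combo held the highest Irf7 of the treated ATMs, with no overlap.

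Irf1 was at 8599, 8143 and 7723 under the agonist, 5738, 5647 and 6637 under the antibody and 9117, 8437 and 8521 in Combo, or -2.04, -2.48 and -1.94 against Vehicle on the log2 scale. Irf9 was at 1152, 1152 and 1251, then 1541, 1569 and 1383, then 1637, 1665 and 1528, or -2.87, -2.54 and -2.43. The order of groups thus differed between the pair, with the antibody lowest for Irf1 and the agonist lowest for Irf9. Irf4 was at 976, 892 and 1019 in Combo, 2.17-fold over Vehicle (log2 1.12, SE 0.3019, adjusted p = 0.00616, edgeR). Without Vehicle replicate 3, the lowest Irf4 library, that value was 0.88 and the call was lost. Under the single agents Irf4 was at 588, 335 and 694 and at 833, 368 and 675, overlapping Vehicle.

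Irf5, Irf2 and Irf8 stayed inside the 2-fold limit against Vehicle in all treated ATMs. Irf5 was at 5044, 4945 and 4785 under the agonist, 6203, 7091 and 6871 under the antibody and 5058, 4927 and 4901 in Combo. Under the agonist and in Combo it lay below Vehicle without overlap (log2 -0.35 and -0.34, adjusted p = 0.00119 and 0.00171, edgeR). Under the antibody it overlapped Vehicle (log2 0.10). Irf1, Irf7 and Irf9 had dropped further in every treated group. Irf2 lay between 1444 and 1871 in all 9 treated libraries, below each Vehicle library (log2 -0.79, -0.86 and -0.80). Irf8 lay between 3675 and 6169.8, and Irf3 between 529 and 878. Neutrophil markers, high in Vehicle, were at 146 to 147 CPM under the agonist and 352 to 365 CPM under the antibody but 11984 to 12310 CPM in Combo, and their part in the Irf7 values was not tested.

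**Figure D3:**
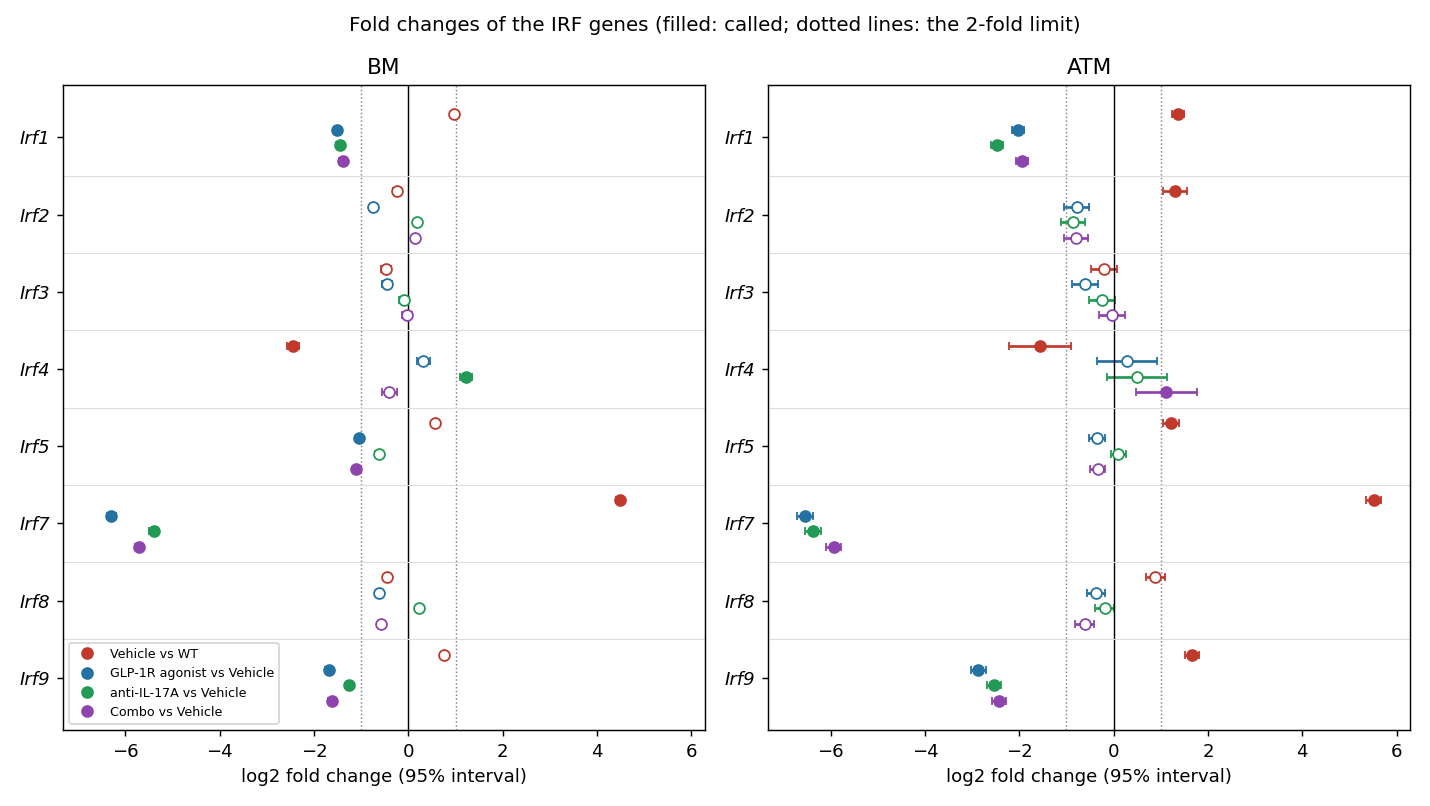
Log2 fold changes of the 8 IRF genes with 95% intervals in BM and ATMs, for Vehicle vs WT and for each treated group vs Vehicle; filled points were called and dotted lines mark the 2-fold limit. Irf7 reaches 4.49 and 5.52 in Vehicle vs WT and lies between -5.40 and -6.54 in the treated groups, while Irf3 stays inside the limit throughout.

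The interferon-target lists were lower in each treated group. All 20 type I interferon-induced genes were called lower than in Vehicle under each treatment in both tissues, with medians from -4.77 (ATM, Combo) to -5.85 (BM, agonist), where the medians over all genes lay between 0.00 and 0.19. Of the 22 interferon-gamma and IRF1 targets, 21, 21 and 22 were called lower in BM and 21, 21 and 20 in ATMs under the agonist, the antibody and Combo. In that order 16.7%, 16.1% and 17.7% of all genes were called in BM, and 31.8%, 35.5% and 26.4% in ATMs. Ciita broke from its list in ATMs, where it rose over Vehicle by 2.66 under the antibody and by 3.12 in Combo. Stat2, a partner of IRF9, fell in every treated group of both tissues, with log2 fold changes of -2.86 to -3.65.

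The interferon transcripts did not move as one. Ifnb1 in ATMs fell from 1353 to 638 normalized counts under the agonist, 46.5 under the antibody and 105 in Combo (log2 -1.08, -4.86 and -3.69). Ifng fell in BM in each treated group, to 10.1, 21.9 and 4.15, but in ATMs it rose to 1297 under the antibody and 1966 in Combo from 486 (log2 1.42 and 2.01), beside an Irf1 that had fallen. T cell markers in ATMs summed to 466 to 482 CPM under the antibody and 856 to 860 CPM in Combo against 99.8 to 118 CPM in Vehicle, and the part of T cells in the higher Ifng was not tested.

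Comparing treated obese mice with WT asks where the members came to rest. In BM no member was called above WT in any treated group. The agonist left Irf4, Irf7, Irf8 and Irf2 lower (log2 -2.13, -1.81, -1.08 and -1.001), against 14.7% of all genes called, Combo left Irf4, Irf7 and Irf8 lower (-2.85, -1.22 and -1.04), against 14.3%, and the antibody left only Irf4 lower of the 8 (-1.23), against 6.32%. Irf2 under the agonist sat on the limit, with a 95% interval of -1.07 to -0.93, and its call was lost without BM WT replicate 1, BM WT replicate 2 or BM GLP-1R agonist replicate 1. Of the treated groups, antibody-treated marrow had the log2 difference from WT nearest to 0 for Irf2, Irf4, Irf5, Irf7, Irf8 and Irf9, and Combo for Irf1 and Irf3, with no test of these orders. Under the antibody Irf2 and Irf5 did not pass the FDR (log2 -0.07 and -0.07, 95% intervals -0.13 to 0.00 and -0.14 to 0.00).

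In ATMs the agonist left Irf4, Irf9 and Irf7 lower than WT (-1.28, -1.21 and -1.02), against 15.1% of all genes called. The antibody left Irf1 and Irf4 lower (-1.11 and -1.06) and Irf5 higher (1.32, SE 0.0782), against 18.7%. The Irf7 call under the agonist was lost without replicate 2 of that group, and the Irf4 call under the antibody without replicate 2 of that group. In Combo none of the 8 was called against WT (edgeR), where 21.6% of all genes were, and DESeq2 also called none. An unadjusted p under 0.05 was found for 6 members and the same 6 passed the FDR, but the share of all genes doing so was not counted. Their log2 differences from WT ran from -0.77 (Irf9) to 0.88 (Irf5). Endothelial and stromal markers, at 11021 to 11734 CPM in WT ATMs, were at 16023 to 16188, 7932 to 8160 and 7836 to 8007 CPM in the agonist, antibody and Combo groups, and their part in these comparisons was not tested.

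Few members told the treatments apart. In BM Combo vs the antibody, Irf4 was called lower (log2 -1.62, adjusted p = 3.46e-23, edgeR), against 5.67% of all genes. Combo vs the agonist in BM called none of the 8 against 13.2% of all genes, and the agonist vs the antibody called none against 5.83%, with 5 and 7 members at an unadjusted p under 0.05 and 0 called by DESeq2 in each. Irf2 was closest to the limit in both, at 0.90 for Combo vs the agonist and -0.93 for the agonist vs the antibody. In ATMs none was called in Combo vs the agonist (18.7% of all genes), Combo vs the antibody (14.2%) or the agonist vs the antibody (8.10%), with 5, 4 and 5 members at an unadjusted p under 0.05 and 0 called by DESeq2. The share of all genes under that p was not counted in either tissue, so these member counts cannot be set against it. The 95% intervals of Irf1 between the agonist and the antibody were -0.12 to 0.02 in BM and 0.32 to 0.57 in ATMs, both inside the limit.

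The log2 response to Combo was also set against the added log2 responses to its components. In BM 4 members departed from the sum, Irf7 (5.98), Irf1 (1.57) and Irf9 (1.32) above it and Irf4 (-1.93) below it, against 21.1% of all genes. In ATMs 3 departed, Irf7 (6.98), Irf9 (2.98) and Irf1 (2.57), all above, against 35.9%. For Irf7, Irf1 and Irf9 each agent alone had already lowered the gene about as far as Combo did, so Combo's decrease was far smaller than the 2 decreases added. For Irf4 in BM the antibody alone raised the gene and Combo did not.

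Levels were compared between genes per length of exon, in RPKM (counts per exon length and library size) with both tissues scaled together. In WT marrow the family was even, with Irf8 highest at 33.4 ± 1.15 RPKM (SD, n = 3), followed by Irf5 (28.4 ± 0.605) and Irf1 (27.7 ± 0.861), whose ranges overlap. Irf9, Irf7, Irf3, Irf2 and Irf4 followed at 17.3, 16.6, 15.7, 13.1 and 12.9 RPKM. The ranges of Irf9 and Irf7, of Irf7 and Irf3, and of Irf2 and Irf4 overlapped. In Vehicle marrow Irf7 alone reached 379.7 ± 9.72 RPKM, and the order below it was Irf1 (54.96), Irf5 (42.7), Irf9 (29.7), Irf8 (24.8), Irf3 (11.4), Irf2 (11.2) and Irf4 (2.42), where Irf3 and Irf2 overlapped and no other neighbours did.

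In WT ATMs Irf1 led at 100.05 ± 2.32 RPKM, over Irf7 (30.7) and Irf5 (28.5), which overlapped, then Irf9 (15.7) and Irf8 (15.2), which overlapped, then Irf3 (8.96) and Irf4 (8.20), which overlapped, and Irf2 (4.88). In Vehicle ATMs Irf7 was at 1435 ± 28.0 RPKM and Irf1 at 264 ± 2.20, over Irf5 (67.8), Irf9 (50.5), Irf8 (28.8), Irf2 (12.2), Irf3 (7.91) and Irf4 (2.83), with no overlap between neighbours. In treated marrow the highest was Irf5 under the agonist (20.5), Irf8 under the antibody (29.2, overlapping Irf5 at 27.9) and Irf1 in Combo (20.5, overlapping Irf5 at 19.4). In treated ATMs Irf1 led under the agonist (63.3) and in Combo (69.2) and Irf5 under the antibody (71.8). Irf4 was the lowest of the 8 in all groups but WT ATMs.

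Summed over the 8 genes, BM WT held 165 ± 3.42 RPKM, Vehicle 557 ± 12.3, the agonist 87.2 ± 0.820, the antibody 128 ± 0.626 and Combo 97.7 ± 2.64 (SD, n = 3 each). ATMs held 212 ± 3.27, 1869 ± 26.7, 175 ± 4.87, 187 ± 5.48 and 196 ± 6.06 in the same order. Irf7 took 10.04% of the sum in WT marrow and 68.2% in Vehicle marrow, and 14.5% and 76.8% in ATMs. Without Irf7, the other 7 genes summed to 148 RPKM in WT and 177 in Vehicle in BM, and to 182 and 434 in ATMs. Most of that second difference was Irf1, at 100.05 RPKM in WT ATMs and 264 in Vehicle ATMs.

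**Figure D4:**
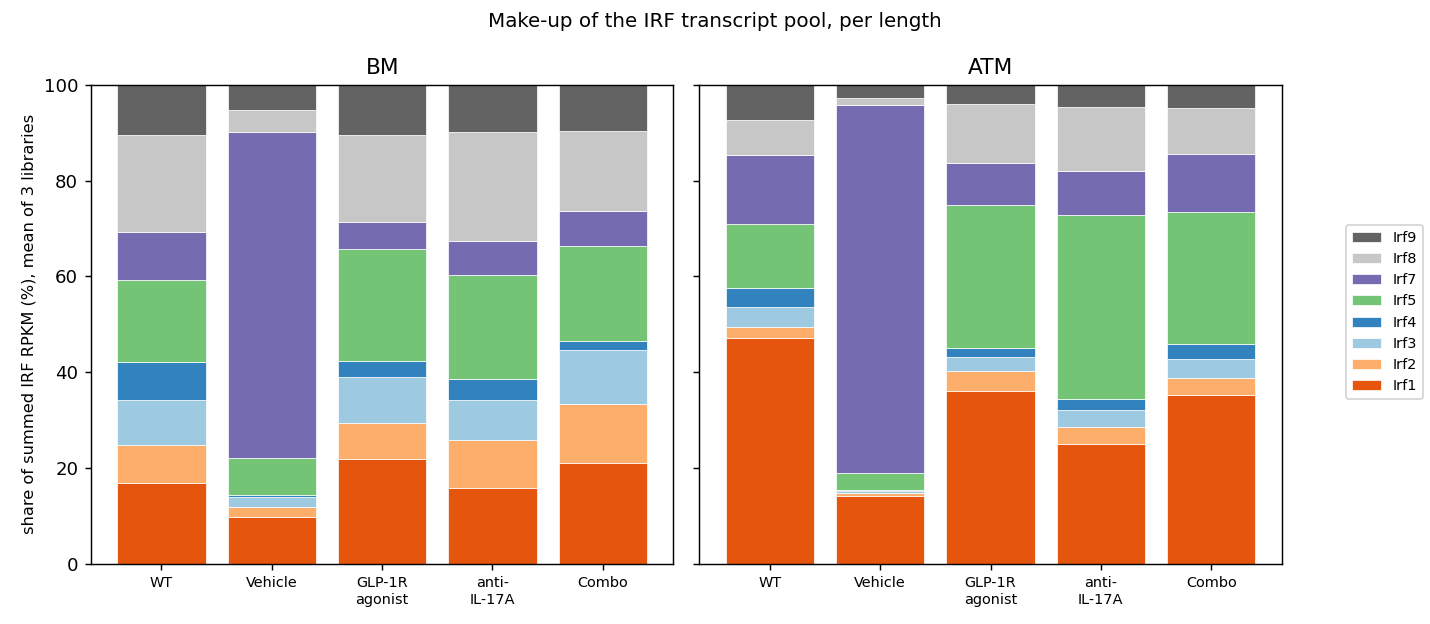
Share of each IRF gene in the summed RPKM of the 8 genes (percent, mean of 3 libraries) for the 5 groups of BM and of ATMs. Irf7 fills 68.2% of the Vehicle bar in BM and 76.8% in ATMs, against 10.04% and 14.5% in WT, and Irf1 fills 47.1% of the WT bar in ATMs.

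Ratios between members with opposed or related roles add to this. The Irf1 to Irf2 ratio per length, an activator over its competitor, had a median of 2.07 in WT marrow and 4.86 in Vehicle marrow, with no overlap, and 2.87, 1.59 and 1.66 under the agonist, the antibody and Combo. In ATMs it was 20.6 in WT and 21.7 in Vehicle, with ranges of 19.8 to 21.2 and 18.6 to 25.4 that overlap, and 8.90, 7.02 and 9.38 in the treated groups, all below WT. Irf1 and Irf2 had both risen in Vehicle ATMs. The Irf7 to Irf3 ratio, the inducible over the constitutive factor of the type I response, went from 1.03 to 33.8 in BM and from 3.36 to 182 in ATMs. In the treated groups it was 0.554, 0.853 and 0.664 in BM and 2.98, 2.51 and 2.83 in ATMs. The Irf4 to Irf8 ratio fell from 0.395 to 0.0969 in BM and from 0.530 to 0.0992 in ATMs. In Combo ATMs it was back at 0.338, the highest of the treated groups of ATMs.

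Whether a group's effect differed between the tissues was tested in 1 fit of all 30 libraries over the 13076 genes of both tables. The fit shared its spread over both tissues (biological coefficient of variation 14.5%), although BM and ATMs alone had 3.51% and 32.5%. Its p-values and intervals do not take up that difference. For Vehicle vs WT, 3 members had a larger effect in ATMs than in BM by over 1 on the log2 scale, against 28.7% of all genes: Irf2 (1.33 in ATMs and -0.22 in BM, a difference of 1.55, adjusted p = 3.66e-11), Irf8 (0.92 and -0.43, 1.35, adjusted p = 8.62e-12) and Irf7 (5.55 and 4.52, 1.03, adjusted p = 4.39e-11, edgeR). Irf2 and Irf8 thus had opposite signs in the tissues. Without BM WT replicate 2 the Irf7 difference was 0.98 and its call was lost. For Irf9 and Irf4 the difference was 0.91 and 0.89, under the limit, and for Irf3 0.27 (95% interval 0.01 to 0.54).

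For the agonist vs Vehicle, only Irf9 of the 8 differed by the rule, falling more in ATMs (-2.89 against -1.70, a difference of -1.20), against 26.6% of all genes. For the antibody 4 members did, against 29.3%: Irf9 (-1.31), Irf2 (-1.07), Irf1 (-1.05) and Irf7 (-1.002), each lower in ATMs. Without ATM Vehicle replicate 3 the antibody count was 2 rather than 4, and the Irf7 call was also lost without ATM Vehicle replicate 1, ATM antibody replicate 1, BM Vehicle replicate 1 or BM antibody replicate 3 (-0.95 to -0.99). For Combo it was Irf4 (1.13 in ATMs and -0.43 in BM, a difference of 1.56, adjusted p = 2.20e-04), against 28.1%. For Irf7 the difference between tissues was -0.25 with the agonist and -0.18 with Combo (95% intervals -0.43 to -0.07 and -0.36 to -0.01).

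Levels themselves differed between tissues. In WT mice ATMs held more Irf1 than BM (log2 1.85) and less Irf2 (-1.42) and Irf8 (-1.13), against 49.8% of all genes called. In Vehicle, ATMs held more Irf1 (2.26) and Irf7 (1.92), against 49.9%. Irf5 was level in WT (log2 0.00, 95% interval -0.12 to 0.13). These contrasts compare a whole marrow with a sorted fraction, so cell make-up and tissue cannot be told apart.

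**Figure D5:**
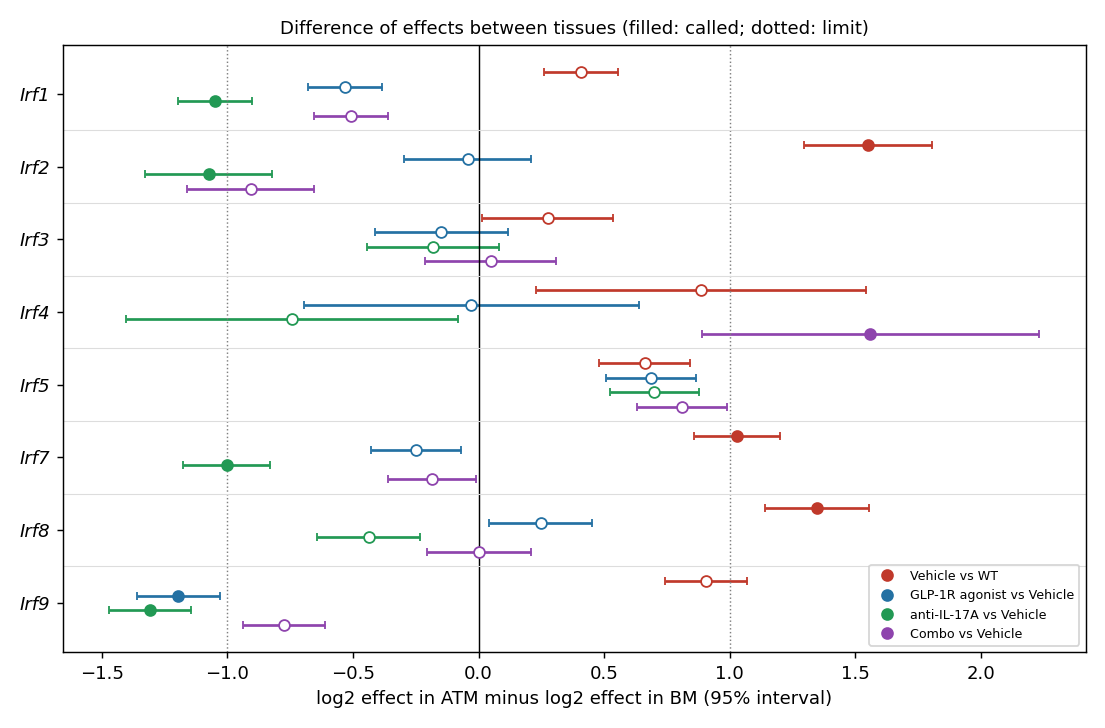
Difference of each log2 effect between tissues (ATM minus BM) with its 95% interval, for the 8 IRF genes and the 4 main comparisons; filled points were called and dotted lines mark a difference of 1. In Vehicle vs WT, Irf2, Irf7 and Irf8 lie right of the limit (1.55, 1.03 and 1.35), and Irf4 does so for Combo (1.56).

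The genes whose log2 CPM ran most like each member over the 15 libraries of a tissue were named by Pearson's r, up to 3 per member, among 10576 genes in BM and 12612 in ATMs with a mean of at least 100 counts. The 15 libraries fall in 5 groups of 3, so an r near 1 mainly restates shared group means, and no p is given. For Irf7 they were Gbp2 (0.9991), Zbp1 and Parp14 in BM and Ifitm3 (0.9988), Ly6a and Xaf1 in ATMs. For Irf9 they were D17H6S56E-5 (0.9940), Mpeg1 and Mndal in BM and Oasl2 (0.9958), Tgtp1 and Iigp1 in ATMs. For Irf1 they were Psme2 (0.9970), Ifi47 and Parp9 in BM and Apol9a (0.9905), Carhsp1 and Cldn1 in ATMs. For Irf5 they were Atf3, Ccnd1 and Tlr9 in BM (0.9908, 0.9908 and 0.9857) and Capg, Efhd2 and St6galnac4 in ATMs (0.9766, 0.9753 and 0.9662).

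In BM Irf8 ran most like Igll1 (0.9861), Jakmip1 and Ebf1, and Irf4 like Cnn3 (0.9924), Lbh and Bcl7a, where Igll1 and Ebf1 are genes of early B cells. In ATMs Irf8 was nearest to P2ry14 (0.9422), Pik3ap1 and Atp6v1e1, and Irf4 to Nxpe3 (0.9138), Gucy1a3 and Acy1, the weakest likeness of the family. Irf2 was nearest to Map4k2 (0.9827), Smarca4 and Adgre5 in BM and Vmp1 (0.9685) and Car4 in ATMs, and Irf3 to Prg3 (0.9770), Chmp5 and Hspa2 in BM and Athl1 (0.9310), Cd52 and Sncg in ATMs. No gene was among the 3 nearest of the same member in both tissues.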

How the data were processed

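Bulk RNA sequencing was read in 30 libraries, 15 of BM and 15 of ATMs. The deposited values are raw counts per gene, made by the authors with STAR 2.7.2a on mm10 (GRCm38) and featureCounts 2.0.1, without strand, and per the paper's methods with the GENCODE annotation; the authors tested with DESeq2. The tables start at gene totals of 55 (BM) and 54 (ATM) counts, so genes of lower total are not analysed here. Here the counts were tested with edgeR 4.0.16 (R 4.3.3; TMM scaling, quasi-likelihood, robust) over all 15 libraries of a tissue, with Benjamini-Hochberg adjustment over 13353 BM and 17059 ATM genes; the expression filter removed 0. A joint fit of 30 libraries over 13076 shared genes tested the difference between tissues. Depth was 31086184 to 39925495 counts in BM and 24876074 to 45300263 in ATMs. RPKM used the summed exon length of GENCODE models. The labels name 3 mice per group but do not tie each library to 1 mouse, so p-values measure only the spread between these libraries, which may be technical. No replicates agreed within sampling noise. Fits were also run on simulated data, for ATMs with a spread below the 32.5% of these libraries. That run does not show how the fits behave at the real ATM spread. DESeq2 1.42.0, another scaling, a count minimum of 10, a replicate block, no fold-change limit and leaving out each library were the alternatives.

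The members, pathway lists and marker lists were chosen with earlier results of these data known. All 8 members are named in each main comparison, with the 3 genes most alike per member and tissue (some items are not reported here), and, per pathway list, up to 4 called genes with the highest mean counts. Ciita, Ifngr2, Ticam2, Ifnar1, Ifnar2 and Stat2, and the interferon genes in the treated groups, were also named after their values were seen. The deposited age label differs from the paper's methods, and the label's age is given.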

Additional observations from a re-analysis of the deposited data

Results flagged for a closer look

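The results below are differences between tissues (ATM minus BM, log2 scale) that passed the adjusted test by more than 1 in a fit of all 30 libraries (edgeR). For Vehicle vs WT they were Irf2 (1.55), Irf7 (1.03) and Irf8 (1.35). For the GLP-1R agonist vs Vehicle it was Irf9 (-1.20). For the anti-IL-17A antibody vs Vehicle they were Irf1 (-1.05), Irf2 (-1.07), Irf7 (-1.002) and Irf9 (-1.31). For Combo vs Vehicle it was Irf4 (1.56). Each tissue gave 3 libraries per group to each difference, and the fit shared its spread over both tissues.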

How the results depend on the processing

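Of 382 counts of called members under the alternatives, 352 stayed within 1.5 times the main count, and of 903 gene log2 values 893 kept direction and side of the threshold. Without a fold-change limit the counts in BM were 8 (Vehicle vs WT), 8, 7 and 7 (agonist, antibody and Combo vs Vehicle), 8, 6 and 8 (the same vs WT), 5 (Combo vs agonist), 5 (Combo vs antibody), 7 (agonist vs antibody) and 8 (departure from the sum). In ATMs they were 7 (agonist and Combo vs Vehicle), 8, 8 and 6 (agonist, antibody and Combo vs WT), 5, 4 and 4 (Combo vs agonist, Combo vs antibody, agonist vs antibody) and 5 (departure). Between tissues they were 7, 5 and 5 (Vehicle vs WT, agonist and Combo vs Vehicle), 7 in WT and 6 in Vehicle. Fewer criteria explain these larger counts. On the FDR alone 48.7% to 76.6% of all genes passed in Vehicle vs WT and in each treatment vs Vehicle. For the other comparisons that share was not counted. The difference between tissues for Combo vs Vehicle counted 2 members under DESeq2 and under DESeq2 size factors, where Irf2 joined Irf4.

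Leaving out 1 library moved the count for ATM Combo vs agonist between 0 and 1 (1 without ATM agonist replicate 3). It moved the tissue difference for Combo between 1 and 2 (2 without ATM Vehicle replicate 2), for the antibody between 2 and 4 (2 without ATM Vehicle replicate 3) and for Vehicle vs WT between 2 and 4 (2 without BM WT replicate 2, 4 without ATM Vehicle replicate 3). Irf4 in ATM Combo vs Vehicle was 0.88 without ATM Vehicle replicate 3, and Irf2 in the antibody's tissue difference -0.94. The Irf7 tissue difference was 0.98 for Vehicle vs WT without BM WT replicate 2, and -0.95 to -0.99 for the antibody without 5 single libraries. Irf3, not called, changed sign in BM Combo vs Vehicle without BM Combo replicate 1 (range 0.0183 to -0.0762 over the single omissions) and in ATM Combo vs Vehicle without ATM Vehicle replicate 3 (range 0.0270 to -0.0892). The cause was not tested. Libraries with the same replicate number did not deviate together (median r 0.0027 in BM and -0.0039 in ATMs), and the fit with a replicate block gave the same counts, 2 in BM and 6 in ATMs for Vehicle vs WT, so the numbers were not used to pair. The spread of 32.5% between ATM replicates limits Irf4, whose libraries differed most.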
